A study of Mus musculus with 6 samples.

Results

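The genes described here belong to the piRNA pathway and to the machinery that silences transposons in the germ line. They comprise PIWI proteins, Tudor domain proteins, piRNA biogenesis factors, the Morc family and their partners, 34 genes chosen by name. A gene was measured where the platform annotation gives a feature of the array that gene's symbol alone. This held for 33 of the 34 genes, which lie on 34 of the 23521 features tested, because Henmt1 has 2 features. Fkbp6, a co-chaperone gene, has no listed feature and was not analysed here. The cells were R1, an established male mouse embryonic stem cell line from a 129X1 x 129S1 cross, held in serum and LIF on gelatin. The treated group received AA2G at 0.74 mM (250 µg/ml) for 3 days. AA2G is ascorbic acid carrying a glucose, named ascorbic acid 2-glucose in the labels, a stable source of vitamin C. The control group was grown without it, and each group has 3 samples on 1 Mouse Gene 2.0 ST array each.

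piRNAs are small RNAs of the germ line that are loaded into PIWI proteins, members of the Argonaute family. They guide the PIWI proteins to transposon transcripts, which are cut in the cytoplasm, and in the nucleus of fetal male germ cells to transposon loci, where DNA methylation is laid down. Tudor domain proteins hold the pathway together by binding methylated arginines of PIWI proteins in perinuclear granules and at mitochondria. In mice most of these genes are used in germ cells, and several of them carry DNA methylation at their promoters in somatic cells.

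Of the 34 member features 4 were higher with AA2G and the other 30 did not pass the test. Morc1, a germline repressor of transposons, was higher by 1.93 ± 0.10 on the log2 scale (SE), Mov10l1, an RNA helicase needed to make piRNAs, by 1.57 ± 0.08, Mael, a nuage protein, by 1.14 ± 0.13, and the PIWI gene Piwil2 by 0.73 ± 0.11. In the limma model over all features these 4 of 34 member features (11.8%) passed a Benjamini-Hochberg adjusted p of 0.05 as higher, against 0.608% of all features. As lower, 0 of 34 passed, against 0.153% of all features. At an unadjusted limma p under 0.05, 10 members were higher and 3 were lower, against 4.66% and 5.06% of all features. The median log2 fold change of the 34 features was 0.02, against -0.01 over all features, and 19 of the 34 were positive (55.9%, against 47.7% of all features). The 3 AA2G arrays all lay above the 3 untreated arrays for 9 member features (26.5%), against 7.21% of all features. They all lay below for 4 member features (11.8%), against 8.48% of all features. The members were chosen with earlier results of these data known, so these contrasts with all features are descriptions and not an independent test. The arrays measured bulk RNA, so more cells that use a gene and more RNA per cell cannot be told apart.

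**Figure D1:**
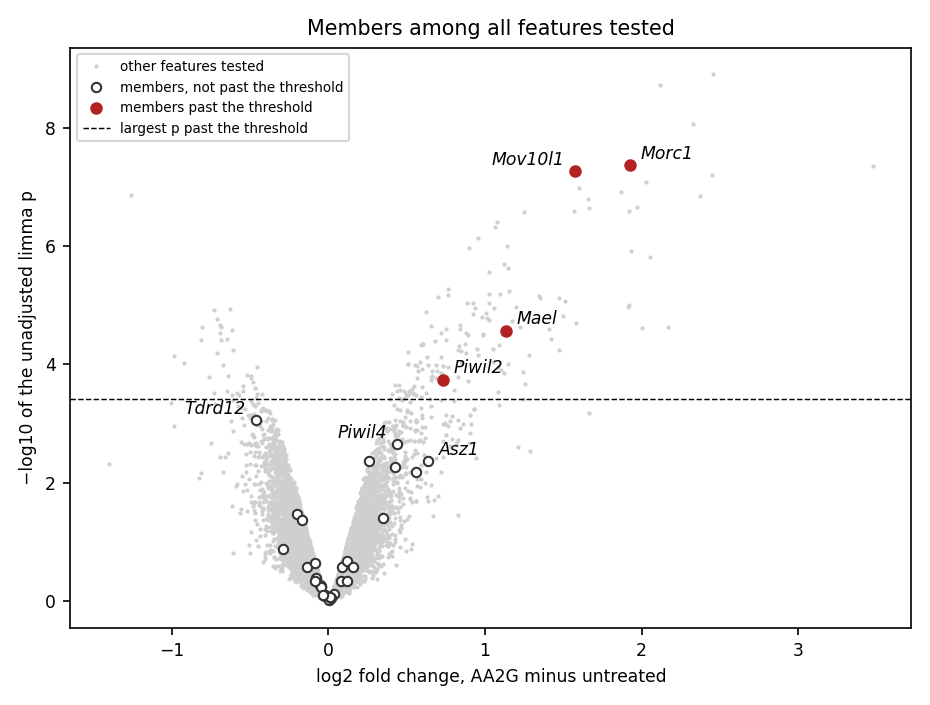
Each point is 1 of the 23521 features tested, with the log2 fold change of AA2G minus untreated on the x axis and −log10 of the unadjusted limma p on the y axis, and the dashed line marks the largest p that passed the adjusted threshold. Morc1 and Mov10l1 stand far to the upper right at 1.93 and 1.57, Mael and Piwil2 lie above the line, and the other 30 member features lie below it.

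All 6 arrays had medians between 5.06 and 5.10. For the marker counts that follow, the shares of all features in limma were 0.608% higher and 0.153% lower. Without adjustment, at p under 0.05, they were 4.66% higher and 5.06% lower. Of 7 embryonic stem cell markers 0 passed in limma, and 2 were lower at an unadjusted p under 0.05, with list means of 9.34 to 9.38 with AA2G and 9.40 to 9.44 in untreated cells. The 2 are Nanog and Pou5f1, for which all AA2G arrays lay below all untreated arrays, as they did for 8.48% of all features. Nanog was at 11.17 ± 0.04 with AA2G and 11.34 ± 0.03 in untreated cells, and Pou5f1 at 7.47 ± 0.01 and 7.64 ± 0.02 (SD, n = 3 each; limma adjusted p = 0.445 and 0.455). Dppa5a of the same list, singled out after its values were seen, was dim, at 5.08 with AA2G and 5.15 in untreated cells. Dazl, which encodes a germ cell RNA-binding protein, was at 9.43 ± 0.19 with AA2G and 7.06 ± 0.24 in untreated cells (SD, n = 3 each), higher by 2.37 ± 0.14 (SE; limma adjusted p = 0.000284, and 3.7e-05 to 0.0972 over the 15 alternatives, where it missed the threshold only with ordinary per-feature variances). Among 8 features of 6 spermatogonium markers, limma called 1 higher and 0 lower. The called gene was Stra8, a gatekeeper of meiotic entry, higher by 0.77 ± 0.11 (SE; limma adjusted p = 0.0218). Its call was lost in 7 of the 15 alternatives (adjusted p 0.00773 to 0.243 over all of them), among them the fits without AA2G replicate 2 (0.0547) or 3 (0.0920) and without untreated replicate 1 (0.0847), 2 (0.0717) or 3 (0.0878). The mean log2 level of the list, Stra8 included, was 5.55 to 5.69 with AA2G and 5.36 to 5.57 in untreated cells. Its 7 features that were not called had log2 fold changes from -0.05 to 0.13. Of 6 spermatocyte and spermatid markers 0 passed in limma and 0 had an unadjusted p under 0.05, with list means of 4.15 to 4.36 with AA2G and 4.17 to 4.29 in untreated cells. Of 7 primordial germ cell markers 0 passed in limma and 1 was lower at an unadjusted p under 0.05, with list means of 6.95 to 7.04 with AA2G and 6.95 to 7.10 in untreated cells. The lower gene was Dnd1, at a log2 fold change of -0.17 (limma adjusted p = 0.451). Markers of Sertoli and Leydig cells, primitive endoderm, trophoblast and fibroblast feeders had 0 limma calls, and without adjustment 1 primitive endoderm gene and 1 trophoblast gene were lower at p under 0.05. These were Sox7, at -0.20 (limma adjusted p = 0.501), and Krt8, at -0.35 (limma adjusted p = 0.0894). The scale has no zero, and the part of any other cell type in the results was not tested.

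The level of a member was set against the brightness of 1405 features of olfactory and vomeronasal receptor genes, chosen as genes that embryonic stem cells are not known to use. In untreated cells 95% of those features were under 4.81. Of the 34 member features 26 lay above that value in untreated cells, against 63.5% of all features. The 8 below it were those of Asz1, Gtsf1, Morc2b, Tdrkh, Tex19.2, Tdrd7, Tdrd9 and the dimmer feature of Henmt1. The table has no detection calls, so a dim value cannot be told from background, and probes differ in how brightly they report.

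**Figure D2:**
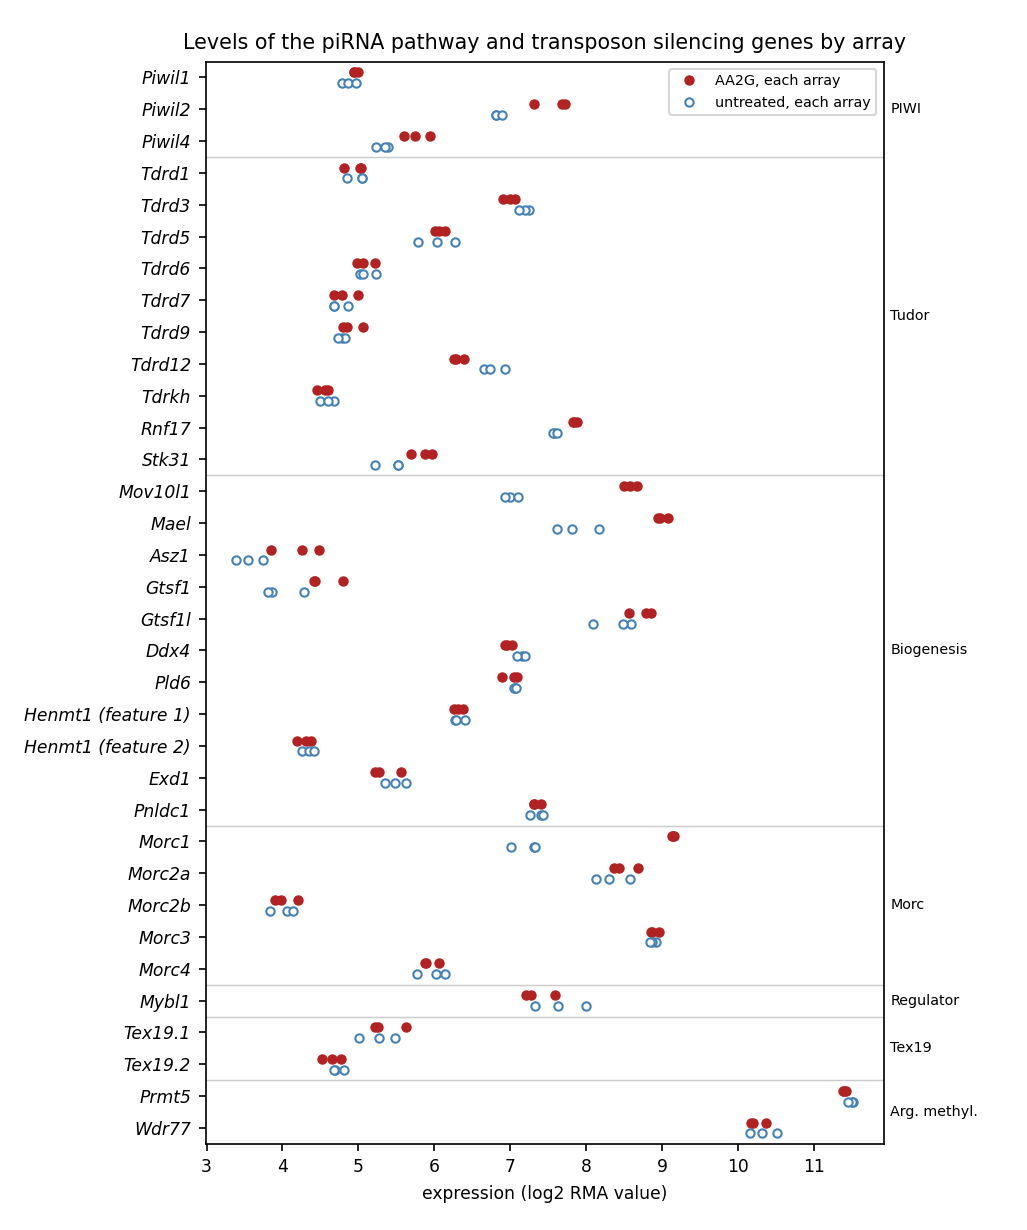
Log2 RMA values of each member feature on each of the 6 arrays, grouped by role, with AA2G arrays as filled red points above untreated arrays as open blue points. For Morc1, Mov10l1, Mael and Piwil2 the 2 groups stand apart to the right in AA2G, for Tdrd12 they stand apart to the left, and for most other members they overlap.

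Of the 3 PIWI genes, 1 rose, against 0.608% of all features, and the others did not pass. Piwil2 encodes Mili, which cuts transposon transcripts and is used from fetal germ cells onward. It was at 7.32, 7.72 and 7.69 on the AA2G arrays and at 6.82, 6.82 and 6.89 on the untreated arrays. The groups did not overlap, and the spread was wider with AA2G (SD 0.224) than in untreated cells (SD 0.0398). The fold was 1.66 (limma adjusted p = 0.0305). Its call was lost without AA2G replicate 2 (0.124) or 3 (0.140) and without untreated replicate 1 (0.106), 2 (0.108) or 3 (0.138), while the log2 fold change stayed between 0.66 and 0.86 in every fit with an array left out. Over all 15 alternatives its adjusted p lay between 0.00687 and 0.265.

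Piwil4 encodes Miwi2, the nuclear PIWI protein of fetal male germ cells that directs DNA methylation to transposons. It was at 5.75, 5.94 and 5.61 with AA2G and at 5.24, 5.39 and 5.35 in untreated cells. All AA2G arrays were higher than all untreated arrays, by 0.44 ± 0.10 on average (SE), but it did not pass (limma adjusted p = 0.132). Piwil1 encodes Miwi, the PIWI protein of spermatocytes and spermatids. It was at 4.94, 5.00 and 4.95 with AA2G and at 4.79, 4.86 and 4.97 in untreated cells, values that overlap (0.09 ± 0.08, SE; limma adjusted p = 0.777). The 95% interval of its difference was -0.08 to 0.26, against 0.47 to 0.99 for Piwil2 and 0.21 to 0.67 for Piwil4.

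Among the factors that make piRNAs or act with them, 2 of 11 features rose, 0 fell in limma and 9 did not pass. Of all features 0.608% rose and 0.153% fell in limma. Unadjusted, 5 were higher and 1 was lower at p under 0.05, against 4.66% and 5.06% of all features. Mov10l1 binds piRNA precursors and feeds them into processing. It was at 8.49, 8.67 and 8.58 on the AA2G arrays and at 7.00, 7.11 and 6.93 on the untreated arrays. The groups were far apart compared with their spread, and the fold was 2.97 (limma adjusted p = 0.000212). This gene passed under all 15 alternatives, with adjusted p from 2.41e-05 to 0.0494 and log2 fold changes from 1.53 to 1.62.

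Mael encodes Maelstrom, a protein of the germ granules with a DNA-binding-like HMG box, which is needed to silence the LINE-1 transposon in mouse testis. It was at 8.97, 9.08 and 8.95 with AA2G and at 8.17, 7.62 and 7.81 in untreated cells. The AA2G arrays lay close together and the untreated ones were spread (SD 0.0719 with AA2G and 0.278 in untreated cells), with no overlap and a fold of 2.20 (limma adjusted p = 0.00886). The call was lost without AA2G replicate 2 (0.0529) or untreated replicate 3 (0.0602), and over all 15 alternatives the adjusted p lay between 0.00135 and 0.219.

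**Figure D3:**
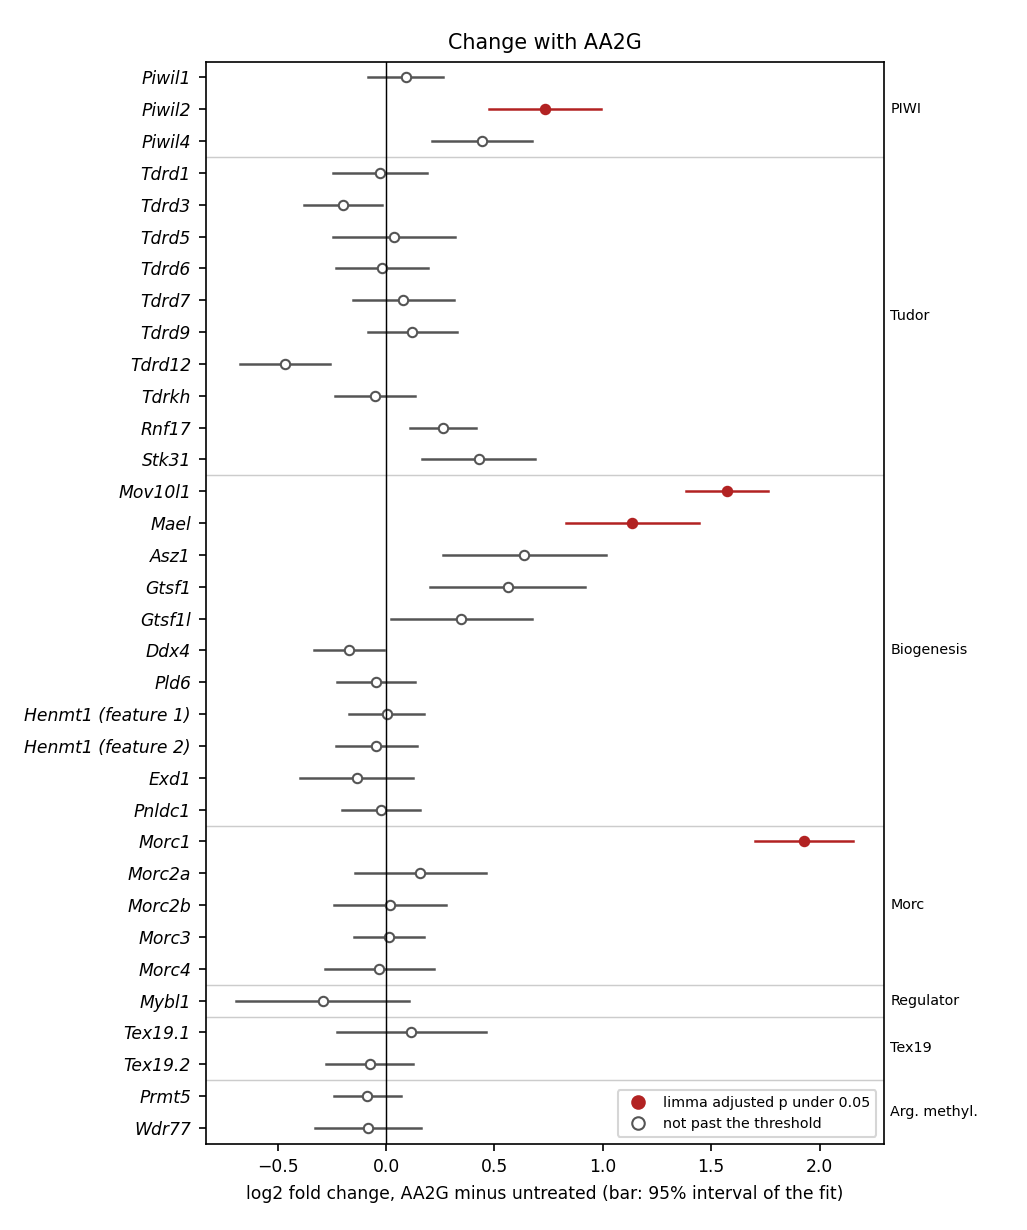
Log2 fold change of AA2G minus untreated for each member feature, grouped by role, with the 95% interval of the fit as a bar and filled red points for features past a limma adjusted p of 0.05. The intervals of Morc1 (1.70 to 2.15), Mov10l1 (1.38 to 1.76), Mael (0.83 to 1.44) and Piwil2 (0.47 to 0.99) lie right of 0, and most of the others span 0.

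Asz1 and Gtsf1 were dim, with values that were higher with AA2G but did not pass. Asz1, a scaffold of the germ granule at the mitochondrial surface, was at 3.84, 4.48 and 4.26 with AA2G and at 3.54, 3.39 and 3.74 in untreated cells (0.64 ± 0.16, SE; limma adjusted p = 0.184). Gtsf1, a zinc finger protein that boosts cutting by PIWI proteins, was at 4.41, 4.80 and 4.42 with AA2G and at 4.29, 3.86 and 3.80 in untreated cells (0.56 ± 0.15, SE; limma adjusted p = 0.228). For both genes the groups did not overlap, and both untreated means lay in the range of the receptor genes. Gtsf1l, a relative of Gtsf1, was brighter, at 8.86, 8.56 and 8.79 with AA2G and at 8.60, 8.09 and 8.49 in untreated cells. Its groups overlapped (0.35 ± 0.14, SE; limma adjusted p = 0.473).

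Other core factors had differences near 0 and did not pass. Ddx4, the germ cell helicase Vasa, was at 7.03, 6.96 and 6.94 with AA2G and at 7.15, 7.19 and 7.09 in untreated cells. All 3 AA2G arrays were lower, by a small difference that did not pass (-0.17 ± 0.07, SE; limma adjusted p = 0.481). The enzymes that shape piRNA ends had values between -0.05 and 0.00. These are Pld6, the mitochondrial nuclease that opens precursors, at 7.02 ± 0.11 with AA2G and 7.06 ± 0.02 in untreated cells (SD, n = 3 each), Pnldc1, which trims piRNAs, at 7.34 ± 0.05 and 7.37 ± 0.10, and Henmt1, which methylates their ends. The brighter feature of Henmt1 was at 6.32 ± 0.06 with AA2G and 6.32 ± 0.07 in untreated cells, and the dimmer one at 4.29 ± 0.09 and 4.34 ± 0.08. Exd1, a partner of Tdrd12, was at 5.35 ± 0.18 with AA2G and 5.48 ± 0.14 in untreated cells (limma adjusted p = 0.775).

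Promoter sequences are shown for 5 members, to set the letters near the start site of the 2 risers that have a listed promoter beside those of 3 members that did not rise. RefSeq promoters of GRCm38.p6 run from 250 bases before to 50 bases after a gene's start, on the strand of the gene, and 28 of the 34 members have at least 1, in 39 windows. Capitals mark CACGTG, the E-box, which reads the same on both strands, and TCCCGC or its complement GCGGGA, a core of E2F sites. These motifs do not overlap in the windows shown. The windows are Mov10l1 (chr15:88982744-88983043, plus strand), Mael (chr1:166238695-166238994, minus strand), Ddx4 (chr13:112652261-112652560, minus strand), Tdrd9 (chr12:111971309-111971608, plus strand) and Tdrd12 (chr7:35537695-35537994, minus strand, the more upstream of 2 windows).
Mov10l1: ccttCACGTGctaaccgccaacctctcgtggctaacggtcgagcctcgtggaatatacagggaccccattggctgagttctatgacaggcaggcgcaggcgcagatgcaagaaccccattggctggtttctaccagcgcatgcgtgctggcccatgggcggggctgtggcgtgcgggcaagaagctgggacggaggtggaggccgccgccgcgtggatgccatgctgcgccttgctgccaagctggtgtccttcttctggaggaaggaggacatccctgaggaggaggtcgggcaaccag
Mael: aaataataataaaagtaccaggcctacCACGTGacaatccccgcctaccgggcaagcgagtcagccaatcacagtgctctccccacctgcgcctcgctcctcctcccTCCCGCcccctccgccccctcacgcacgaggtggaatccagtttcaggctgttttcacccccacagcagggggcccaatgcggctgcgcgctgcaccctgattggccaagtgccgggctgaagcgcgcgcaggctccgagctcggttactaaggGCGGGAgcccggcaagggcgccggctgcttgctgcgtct
Ddx4: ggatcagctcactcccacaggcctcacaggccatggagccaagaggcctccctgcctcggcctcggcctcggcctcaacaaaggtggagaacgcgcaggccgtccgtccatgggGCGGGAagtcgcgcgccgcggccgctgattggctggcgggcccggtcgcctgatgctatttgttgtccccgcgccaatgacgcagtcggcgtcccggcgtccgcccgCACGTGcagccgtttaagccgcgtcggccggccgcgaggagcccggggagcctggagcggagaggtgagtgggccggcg
Tdrd9: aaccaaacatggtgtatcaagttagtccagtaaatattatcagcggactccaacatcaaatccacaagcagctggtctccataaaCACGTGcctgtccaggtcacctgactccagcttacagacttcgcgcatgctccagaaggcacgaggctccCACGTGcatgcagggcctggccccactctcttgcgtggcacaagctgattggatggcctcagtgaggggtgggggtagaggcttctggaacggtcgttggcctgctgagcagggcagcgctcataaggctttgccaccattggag
Tdrd12: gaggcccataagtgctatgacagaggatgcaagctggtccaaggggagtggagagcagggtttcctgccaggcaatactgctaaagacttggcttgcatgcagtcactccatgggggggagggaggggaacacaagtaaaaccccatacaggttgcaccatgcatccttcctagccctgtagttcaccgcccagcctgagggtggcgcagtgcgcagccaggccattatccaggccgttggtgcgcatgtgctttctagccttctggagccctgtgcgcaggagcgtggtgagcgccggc

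Mov10l1 has CACGTG at position -246 from the start site, counted at the first base of the match, and Mael has it at -223. Mael also has TCCCGC or its complement at -143 and 12. Ddx4 has CACGTG at -29 and the complement of TCCCGC at -136, and Tdrd9 has CACGTG at -165 and -95, so members that did not rise hold the same letters. Tdrd12 has neither motif in this window. Of the 28 member genes, 10 hold CACGTG (35.7%), against 8.09% of 27025 genes in the table, and by window the shares were 33.3% of 39 and 7.15% of 32851. The 10 are Piwil1, Tdrd1, Tdrd9, Stk31, Mov10l1, Mael, Ddx4, Pld6, Fkbp6 and Wdr77, of which 2 were called higher, 7 were not called and 1 has no feature. TCCCGC on either strand was in 9 of 28 member genes (32.1%), against 22.05% of all genes. The median number of CG dinucleotides per window was 20 in members and 7 over all windows, with 20 in Mov10l1, 24 in Mael, 38 in Ddx4, 10 in Tdrd9 and 9 in Tdrd12. CACGTG itself holds a CG, and the shares over all genes and windows were not matched for CG number. The windows of Tdrd1, Stk31 and Fkbp6 that hold CACGTG overlap and count the same sites again. A match is a description of the letters only.

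Of the 10 Tudor domain genes 0 passed in limma, where 0.608% of all features passed as higher and 0.153% as lower. Without adjustment 2 were higher and 2 lower at p under 0.05, against 4.66% and 5.06% of all features. Tdrd12, a helicase with Tudor domains that acts in secondary piRNA production, had the lowest fold change of all members. It was at 6.27, 6.39 and 6.28 with AA2G and at 6.93, 6.66 and 6.74 in untreated cells. The groups did not overlap, and the difference was -0.46 ± 0.09 (SE; limma adjusted p = 0.0855). It passed as lower with a trended robust prior (0.0460), with array weights (0.0213) and with brighter features only (0.0444), and its adjusted p lay between 0.103 and 0.283 in the fits with an array left out and between 0.0213 and 0.296 over all 15 alternatives.

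Rnf17, which restrains transposon-type piRNA amplification in mouse male germ cells, was at 7.84, 7.83 and 7.88 with AA2G and at 7.58, 7.56 and 7.62 in untreated cells. The groups were tight and apart, by a small step of 0.26 ± 0.07 (SE; limma adjusted p = 0.184). Stk31, which joins a Tudor and a kinase-like domain, was at 5.69, 5.98 and 5.87 with AA2G and at 5.52, 5.52 and 5.22 in untreated cells (0.43 ± 0.11, SE; limma adjusted p = 0.206), and of the 15 alternatives (0.0392 to 0.495) it passed only with array weights. Tdrd3, a broadly used member that partners a topoisomerase, was at 6.90, 7.06 and 6.99 with AA2G and at 7.25, 7.20 and 7.11 in untreated cells (-0.20 ± 0.08, SE; limma adjusted p = 0.449). For these 3 genes the groups did not overlap. Of the 10 Tudor features, 2 had all AA2G arrays above and 2 had all below, against 7.21% and 8.48% of all features.

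The other 6 Tudor genes had overlapping groups and log2 fold changes between -0.05 and 0.12. Tdrd1, a binding partner of Mili, was at 4.96 ± 0.13 with AA2G and 4.98 ± 0.11 in untreated cells (SD, n = 3 each). Tdrd9, the helicase that works with Miwi2, was at 4.90 ± 0.14 and 4.78 ± 0.05, and Tdrkh, the mitochondrial Tudor protein of piRNA trimming, at 4.54 ± 0.07 and 4.59 ± 0.09. Tdrd5 was at 6.07 ± 0.07 with AA2G and 6.03 ± 0.24 in untreated cells. The chromatoid body genes Tdrd6 and Tdrd7 were at 5.09 ± 0.12 and 4.82 ± 0.16 with AA2G, and at 5.11 ± 0.11 and 4.74 ± 0.11 in untreated cells. Their 95% intervals all lay within 0.50 of 0.

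In the Morc family, which are chromatin ATPases, 1 of 5 genes rose, 0 fell in limma, and the same 1 was higher without adjustment. The shares of all features were 0.608% higher and 0.153% lower in limma, and 4.66% higher without adjustment. Morc1, needed in mice to keep transposons silent in male germ cells, was at 9.13, 9.15 and 9.16 with AA2G and at 7.31, 7.01 and 7.33 in untreated cells. The AA2G arrays lay within a narrow band well above every untreated array, and the fold was 3.80 (limma adjusted p = 0.000210), the largest among the members. It ranked 4 of all 23521 features by p, and Mov10l1 ranked 6. The call held with each array left out, with log2 fold changes from 1.82 to 1.98, and missed the threshold with ordinary per-feature variances (0.0587), with an adjusted p as low as 2.05e-05 among the other 14 alternatives.

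**Figure D4:**
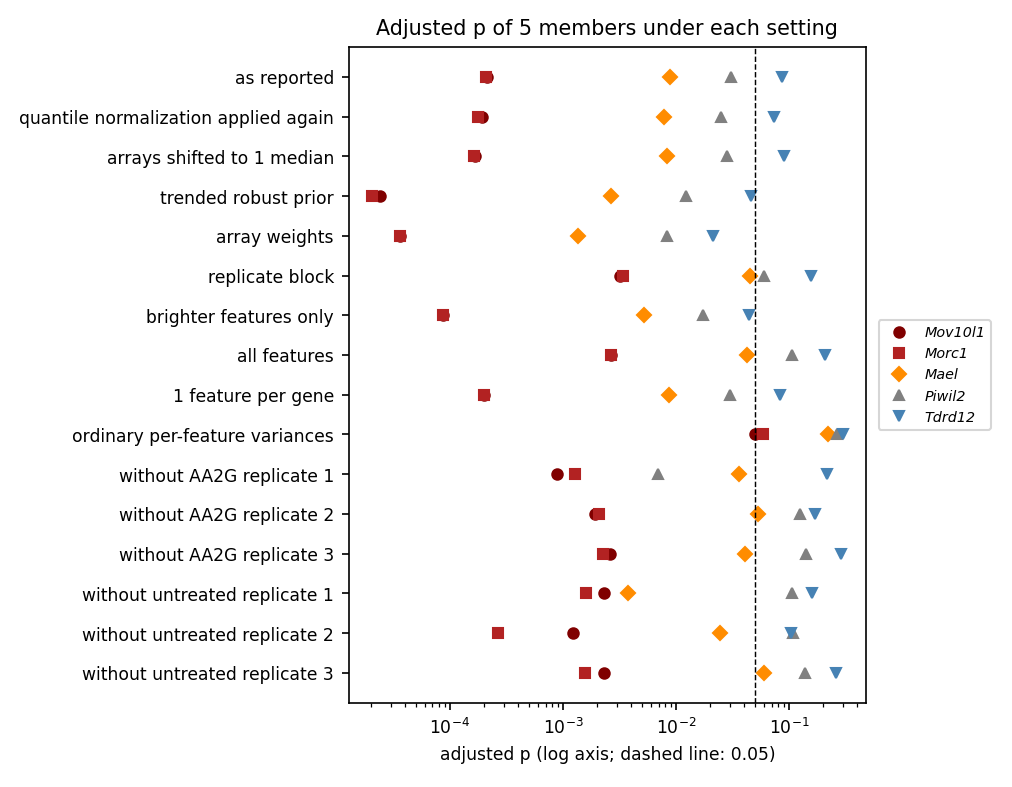
Adjusted p on a log axis of 5 members in the AA2G comparison, as reported and under each of the 15 alternative settings, with a dashed line at 0.05. Mov10l1 lies left of the line throughout, Morc1 in all but the fit with ordinary per-feature variances, Mael crosses it in 3 settings and Piwil2 in 8, and Tdrd12 lies left of it in 3.

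The other Morc genes did not pass. Morc3, which represses endogenous retroviruses in embryonic stem cells, was at 8.85, 8.96 and 8.87 with AA2G and at 8.92, 8.87 and 8.85 in untreated cells, values that overlap closely (95% interval of the difference -0.15 to 0.18). Morc2a, a partner of the HUSH silencing complex, was at 8.37, 8.68 and 8.44 with AA2G and at 8.13, 8.58 and 8.30 in untreated cells (95% interval -0.15 to 0.46). Morc2b, a relative used in meiosis, was dim, at 4.03 ± 0.16 with AA2G and 4.01 ± 0.16 in untreated cells (SD, n = 3 each), and Morc4 was at 5.95 ± 0.10 and 5.98 ± 0.19. The interval of Morc1, 1.70 to 2.15, lies above those of all 4 relatives.

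The regulator and partner genes did not pass. Mybl1, the transcription factor A-Myb that drives piRNA genes in spermatocytes, was at 7.59, 7.21 and 7.27 with AA2G and at 8.00, 7.32 and 7.63 in untreated cells. Its untreated arrays were the most spread of all members (SD 0.338), the groups overlapped, and the difference was -0.29 ± 0.17 (SE; limma adjusted p = 0.663). Tex19.1, which limits retrotransposons in germ cells and placenta, was at 5.26, 5.63 and 5.23 with AA2G and at 5.01, 5.49 and 5.28 in untreated cells (limma adjusted p = 0.870). Its relative Tex19.2 was at 4.65 ± 0.12 with AA2G and 4.73 ± 0.07 in untreated cells (SD, n = 3 each). Prmt5, the enzyme that methylates arginines of PIWI proteins and of many other proteins, was at 11.40 ± 0.02 and 11.49 ± 0.04, and its cofactor Wdr77 at 10.25 ± 0.10 and 10.33 ± 0.18. The AA2G arrays of Prmt5 were all lower, by 0.09 on average (95% interval of the difference -0.24 to 0.07).

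Further genes of the pathway were taken from a separate list of 15, of which 12 were measured on 13 features. In limma 1 rose and 0 fell, against 0.608% and 0.153% of all features. Without adjustment 3 were higher and 0 lower at p under 0.05, against 4.66% and 5.06% of all features. The median log2 fold change was 0.03, against -0.01 over all features. Gpat2, a mitochondrial acyltransferase-like protein that binds Mili, was at 6.05, 6.27 and 6.24 with AA2G and at 5.73, 5.50 and 5.65 in untreated cells. The groups did not overlap, and the difference was 0.56 ± 0.09 (SE; limma adjusted p = 0.0447). Its call was lost with each array left out in turn (adjusted p 0.0501 to 0.194, and 0.0101 to 0.257 over all 15 alternatives). D1Pas1, a testis helicase of the DEAD box family, was at 6.41 ± 0.19 with AA2G and 5.82 ± 0.18 in untreated cells (SD, n = 3 each), with a difference of 0.59 ± 0.13 (SE; limma adjusted p = 0.106). Dnmt3l, the cofactor of de novo methylation at transposons in germ cells, was at 8.09 ± 0.02 and 7.77 ± 0.10 (limma adjusted p = 0.161).

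**Figure D5:**
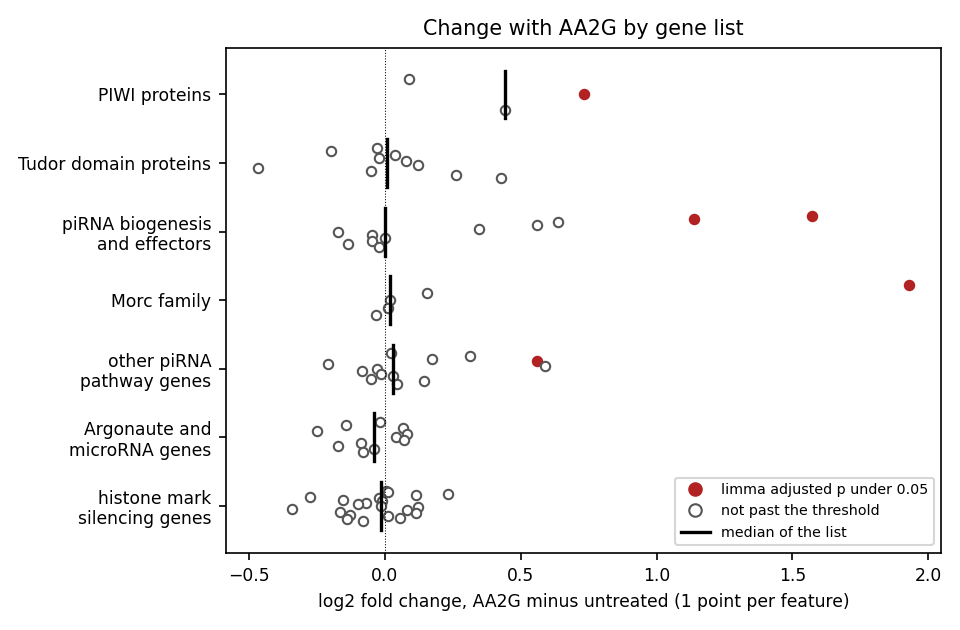
Log2 fold change of AA2G minus untreated for each feature of 4 member groups and of 3 lists of other genes, with 1 point per feature, filled red where the limma adjusted p was under 0.05, and a bar at each list's median. The medians of the biogenesis, Tudor and Morc groups lie between 0.00 and 0.02 and that of the PIWI group at 0.44, with Mov10l1, Mael and Morc1 far to the right of their groups.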

How the data were processed

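Gene expression was measured in 6 samples, 3 of R1 mouse embryonic stem cells with AA2G and 3 without, on 1 array each. The authors deposited log2 values that come from RMA, run in Affymetrix Expression Console according to the submitters' processing notes. Versions and filters were not given in the sources used here. RMA includes quantile normalization between arrays, so a change in total RNA per cell is not seen. Of 41345 features, 23521 have 1 symbol in the platform annotation, 1814 have several and 16010 have no listed symbol. Those with 1 symbol were tested in limma 3.58.1 (R 4.3.3; lmFit and eBayes, default prior, two-sided, no covariate), with Benjamini-Hochberg adjustment over all of them and a threshold of 0.05. Differences are AA2G minus untreated. With 3 arrays a group, an exact permutation test reaches p = 0.1 at best and was not used. The labels call the samples independent replicates, and the p-values measure the spread between them. They name no batch or scan date. An array gives no read depth, so the number of arrays limits the precision.

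All members were named. Every array's value is given at least for members past the threshold and for the PIWI genes, and up to 3 genes of each other list were named by smallest p, together with Nanog, Pou5f1 and Dazl. Members and lists were chosen with earlier results of these data known. For 23328 features the Entrez Gene identifier matched a RefSeq gene (GRCm38.p6), with 0 differing symbols. The procedure was tested on simulated data with independent normal errors and variances shuffled across features. Such data hold no deviation shared between arrays and no link of variance to level, so the test does not bear on these. There were 15 alternative settings, among them repeated quantile normalization, arrays shifted to 1 median, other variance models, a replicate block, other sets of features (such as those with a mean above 4.99, percentile 40), and each array left out.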

Additional observations from a re-analysis of the deposited data

How the results depend on the processing

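The 4 member calls were those of Morc1, Mov10l1, Mael and Piwil2. Of the 34 member features 16 kept both their direction and their side of the threshold under every alternative that included them. Piwil1, Tdrd9, Tdrkh, Asz1, Gtsf1 and Tex19.2 are among these and were not in the fit of brighter features only. The number of members called higher was 1 with ordinary per-feature variances and 2 to 4 with an array left out, being 2 without AA2G replicate 2 or untreated replicate 3. The number called lower was 1 (Tdrd12) with a trended robust prior, with array weights and with brighter features only. Over all features there were 143 higher and 36 lower calls. These were 303 and 193 with array weights, 9 and 4 with ordinary per-feature variances, and 58 to 115 and 6 to 17 with an array left out, while the lower calls were 79 under the trended robust prior, 86 among brighter features only and 20 over all features of the table. The array weights were 2.07 for AA2G replicate 3 and 2.64 for untreated replicate 3, and 0.57 to 0.74 for the other arrays. Calls with array weights thus rest mostly on 1 array of each group. With ordinary per-feature variances Mael (0.219), Piwil2 (0.265), Morc1 (0.0587), Dazl (0.0972) and Stra8 (0.243) did not pass, and with all features Piwil2 (0.106) and Stra8 (0.0833) did not. Same-numbered samples deviated together at r = 0.231, 0.224 and 0.0169 across features. Crossed pairs of numbers 1 and 2 had r = -0.2223 and -0.2224, and the other crossed pairs had r from -0.0128 to -9e-04. These values do not establish a pairing. With the replicate number as a block 3 members were called higher, as Piwil2 was at an adjusted p of 0.0593, 130 features were called higher and 25 lower, Gpat2 was lost (0.127) and D1Pas1 passed (0.0377). D1Pas1 also passed with array weights (0.0217). Signs turned, with 0 of these values called, for 13 member features near 0. With array weights Tdrd6 was at 0.0517 and the brighter feature of Henmt1 at -0.0028. With an array left out the log2 fold changes ran from -0.0903 to 0.0463 for Tdrd1, -0.086 to 0.158 for Tdrd5, -0.0846 to 0.0427 for Tdrd6, -0.0088 to 0.146 for Tdrd7, -0.0876 to 0.0124 for Pld6, -0.0285 to 0.0448 for the brighter feature of Henmt1, -0.0864 to 0.0057 for the dimmer feature of Henmt1, -0.0768 to 0.0129 for Pnldc1, -0.0703 to 0.0846 for Morc2b, -0.0219 to 0.0345 for Morc3, -0.135 to 0.0515 for Morc4, -0.013 to 0.231 for Tex19.1 and -0.171 to 0.0088 for Wdr77. The cause of these moves was not tested. RMA values of dim features understate the fold, which limits what can be read from Asz1, Gtsf1 and the others in the range of the receptor genes.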

Other observations

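The somatic relatives of the PIWI proteins and their microRNA machinery gave 0 limma calls among 11 measured genes, with 0 at an unadjusted p under 0.05 and a median log2 fold change of -0.04. For this list and the next, the shares of all features in limma were 0.608% higher and 0.153% lower. Without adjustment they were 4.66% higher and 5.06% lower. Ago2, an Argonaute protein that cuts targets, was at 9.46 ± 0.06 with AA2G and 9.60 ± 0.03 in untreated cells (SD, n = 3 each; limma adjusted p = 0.581). Ago4 was at 4.05 ± 0.15 and 4.29 ± 0.21, and Xpo5, which exports microRNA precursors, at 9.00 ± 0.11 and 9.17 ± 0.16. The genes by which embryonic stem cells silence transposons through histone marks also gave 0 limma calls among 18 genes on 21 features, with 1 up and 1 down before adjustment at p under 0.05 and a median of -0.02. Cbx5, which encodes the heterochromatin protein HP1 alpha, was at 9.12 ± 0.09 with AA2G and 9.46 ± 0.08 in untreated cells (SD, n = 3 each; limma adjusted p = 0.156, with 0.0410 to 0.445 over 15 alternatives and a pass only with array weights). Atf7ip, a partner of the methyltransferase Setdb1, was at 9.80 ± 0.12 and 9.56 ± 0.06 (limma adjusted p = 0.400), and the histone chaperone gene Daxx at 8.53 ± 0.06 and 8.70 ± 0.10 (limma adjusted p = 0.568).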
